A study of Mus musculus with 4 samples.

Results

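A set of 10 genes of the Krüppel-like factor (*Klf*) and specificity protein (*Sp*) family was followed in medullary thymic epithelial cells (mTECs): *Klf2*, *Klf3*, *Klf4*, *Klf5*, *Klf6*, *Klf10*, *Klf13*, *Sp1*, *Sp3* and *Sp6*. They were taken by gene symbol, and they are 10 of the 26 *Klf* and *Sp* genes and of the 23337 genes in the count table. The 10 were selected on measured values of these same 4 libraries, namely their differences between the groups, with *Sp6* included because it was higher in the 2 libraries labelled as lacking *Sirt6*. Those differences between the groups are therefore given as a description, without a test. All 10 passed the filter on low counts, as did 24 of the 26 family genes and 18547 of all genes.

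The study asked how the deacylase SIRT6 acts in mTECs, the thymic cells that display self antigens to developing T cells. RNA was sequenced from mTECs sorted as CD45-, EPCAM+, UEA-1+ and Ly51- cells from C57BL/6 mice at 4 weeks of age. WT mice (2 libraries) were *Foxn1*-Cre-negative littermates or age-matched mice, and the other 2 libraries are labelled Sirt6-/-, here called cKO, from *Foxn1*-Cre *Sirt6* loxp/loxp mice. The *Foxn1* promoter drives Cre in epithelial cells of the thymus, and also in those of the skin. The study describes the samples of a group as independent, but how many animals gave each library was not stated in the sources used here, so the p-values below measure the spread between these libraries.

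Before any direction is drawn, *Sirt6* itself had counts of 622 and 755 in the WT libraries, and 882 and 835 in the libraries labelled cKO. It was thus not lower in the libraries labelled cKO, with a log2 fold change of 0.37 (SE 0.32, edgeR quasi-likelihood test, adjusted p = 0.80). A count over the whole gene does not show how many of its reads fell in the deleted part. The study reported separately that *Sirt6* was inactivated. It used western blot of cultured thymic epithelial cells and quantitative PCR of sorted medullary and cortical ones. Those measures are not among the values used here. The library totals ran from 61102704 to 65907745 counts. The 8 mTEC markers summed to between 4328 and 5637 TPM (a level per gene length and depth), and the 4 cortical markers to between 267 and 422 TPM. Markers of blood cells were also present after a sort against CD45, with 627 to 1243 TPM over 11 thymocyte markers, 162 to 244 TPM over 5 B cell markers and 3927 to 9886 TPM over 7 myeloid markers, most of it *Lyz2*. Of all these markers, none was at 0 in every library. In bulk samples of this kind, fewer cells of a type and less RNA per cell cannot be told apart.

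*Klf* and *Sp* proteins bind DNA through zinc fingers near the carboxyl end and read GC-rich elements, the GC box (GGGCGG) and the CACCC box, that are common in promoters. The *Sp* proteins mostly activate transcription, whereas the *Klf* proteins divide into activators and repressors that recruit CtBP or SIN3A. In epithelia, *Klf4* is known for the barrier-forming, differentiated layers, *Klf5* for the proliferating ones, and *Sp6*, also called epiprofin, for teeth, hair follicles and skin.

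Promoter windows of 3 members are printed here, with the letters that the family's proteins read in capitals, because *Klf6* was the most abundant member, *Klf4* stands for the epithelial members and *Klf3* had the most motifs of the members with a sequence. Each window of 300 bases spans the start of a RefSeq transcript, which can differ from the start of the gene in the annotation used for positions below, and is given 5′ to 3′ on the strand of the gene, on GRCm38.p6. Capitals mark GGGCGG and CACCC on either strand, which may overlap. The *Klf3* window lies at chr5:64803271-64803570 on the plus strand, the *Klf4* window at chr4:55532426-55532725 on the minus strand and the *Klf6* window at chr13:5861239-5861538 on the plus strand.
Klf3: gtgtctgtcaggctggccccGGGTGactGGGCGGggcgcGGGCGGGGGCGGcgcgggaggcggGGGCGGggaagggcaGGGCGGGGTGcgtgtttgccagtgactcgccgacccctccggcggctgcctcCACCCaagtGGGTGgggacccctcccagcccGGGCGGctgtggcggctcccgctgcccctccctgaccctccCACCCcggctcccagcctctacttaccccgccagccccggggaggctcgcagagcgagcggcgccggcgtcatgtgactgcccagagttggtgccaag
Klf4: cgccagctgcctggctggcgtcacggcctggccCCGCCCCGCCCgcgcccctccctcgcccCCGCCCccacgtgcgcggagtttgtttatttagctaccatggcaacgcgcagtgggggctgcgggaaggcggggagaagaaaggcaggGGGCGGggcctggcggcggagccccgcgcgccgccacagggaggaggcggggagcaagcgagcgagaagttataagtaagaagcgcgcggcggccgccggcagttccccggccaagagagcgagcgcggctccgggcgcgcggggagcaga
Klf6: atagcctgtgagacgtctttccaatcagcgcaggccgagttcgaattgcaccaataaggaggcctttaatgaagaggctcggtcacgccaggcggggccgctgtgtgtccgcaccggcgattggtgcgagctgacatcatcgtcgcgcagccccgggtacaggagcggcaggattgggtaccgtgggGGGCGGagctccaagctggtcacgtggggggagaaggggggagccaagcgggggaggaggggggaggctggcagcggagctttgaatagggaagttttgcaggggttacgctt
The *Klf3* window held 6 GC boxes and 5 CACCC boxes, with 76.7% G and C. The *Klf4* window held 4 GC boxes and the *Klf6* window held 1, and neither held a CACCC box. RefSeq windows were matched for 7 of the 10 members, 8 windows in all because *Sp3* has a pair of starts. A GC box was in 8 of the 8 windows, against 35.7% of all 32851 windows of the same 300 bases. A CACCC box was in 5 of the 8, against 57.5% of all windows. Over the complete family, 20 genes had 26 windows, of which 18 held a GC box and 21 a CACCC box. *Klf5*, *Klf10* and *Sp6* had no window.

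*Klf6* was by far the most abundant of the family in these mTECs, followed by *Sp6* and *Klf10*. On the TPM scale, on which genes of different length can be compared, *Klf6* had a mean level of 643 over the 4 libraries, *Sp6* 164, *Klf10* 137, *Klf4* 61.3, *Klf5* 37.6, *Klf3* 20.8, *Sp3* 14.9, *Klf2* 7.68, *Sp1* 5.44 and *Klf13* 4.32. Of the genes that are no members, *Klf7* (80.4), *Klf11* (47.4), *Klf9* (42.2), *Sp2* (19.7), *Sp4* (7.91) and *Klf16* (5.39) stood among them. In this order of all 26 genes, the ranges over the 4 libraries were apart between *Klf6* and *Sp6*, between *Klf10* and *Klf7* and between *Klf4* and *Klf11*, and every other pair of neighbours overlapped. All *Klf* and *Sp* genes together summed to 1188 TPM in WT 1, 1289 in WT 2, 1342 in cKO 1 and 1438 in cKO 2. The 10 members held 80.9%, 82.7%, 84.3% and 85.5% of those sums, and *Klf6* alone held 45.1%, 51.4%, 48.4% and 50.5%.

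**Figure D1:**
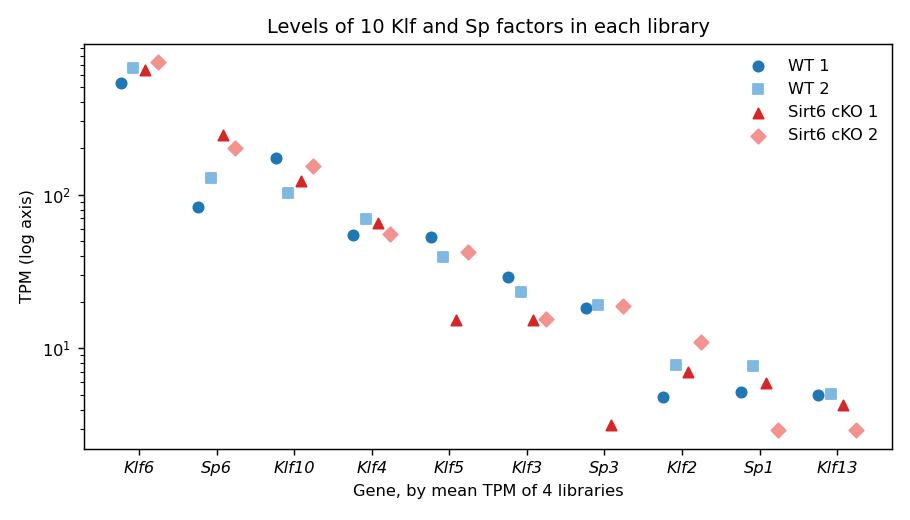
Level of each of the 10 members in TPM on a log axis, 1 point for each library, with the 2 WT and the 2 cKO libraries in different colours. *Klf6* lies above all others in every library, *Sp6* is higher and *Klf3* and *Klf13* are lower in both cKO libraries than in both WT libraries, and *Klf5* and *Sp3* have a single low point in cKO 1.

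*Sp6*, the epithelial factor of the group, had 8457 counts in WT 1, 12399 in WT 2, 22766 in cKO 1 and 19744 in cKO 2. Both libraries labelled cKO lay above both WT libraries, and the groups did not overlap. Scaled to the depth of each library with TMM factors (CPM), the level was 162 ± 46.4 (SD, n = 2) in WT, against 343 ± 49.1 for cKO (SD, n = 2), a 2.11-fold difference (log2 fold change 1.08, SE 0.26). The WT libraries themselves were unequal, and the log2 fold change was 0.79 without WT 1 and 1.41 without WT 2. The difference of the group means was larger than the gap between the libraries within either group. Since *Sp6* was picked for being higher in these same libraries, this is a description only.

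In TPM, *Sp6* went from 83.0 and 129 in WT to 243 and 200 in cKO. Its share of all *Klf* and *Sp* transcripts was 6.98% and 9.99% in WT and 18.1% and 13.9% in cKO. Its place in the order of levels differed with it. In WT, *Klf10* (mean 137 TPM) stood above *Sp6* (mean 106 TPM) with overlapping ranges, and in cKO *Sp6* (mean 222 TPM) stood above *Klf10* (mean 138 TPM) with ranges apart. The ratio of *Klf6* to *Sp6* in TPM was 6.46 and 5.15 in WT and 2.66 and 3.63 in cKO. The summed mTEC markers overlapped between the groups, with 4328 and 5637 TPM in WT and 4692 and 5471 TPM in cKO. *Krt8*, whose protein the study stained to mark the cortex, was the largest part of each sum. It had 2232 and 3195 TPM in WT and 2049 and 2225 TPM in cKO, and the overlap of the sums depended on it. Of the 8 markers, 4 were higher without overlap, against 21.6% of all genes tested. The 1 that was lower without overlap was *Krt8*, against 20.3% of all genes tested. The 5 keratinocyte markers summed to 140 and 126 TPM in WT and 114 and 159 TPM in cKO. Of these, 2 (*Ivl* and *Sbsn*) were higher and 1 (*Krt10*) was lower without overlap, against the same shares of all genes tested. *Sbsn* went from 19.2 and 27.6 TPM in WT to 70.4 and 55.4 TPM in cKO, and *Krt10* from 41.5 and 37.2 TPM to 6.11 and 25.6 TPM. The part of keratinocytes in the *Sp6* values was not tested.

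**Figure D2:**
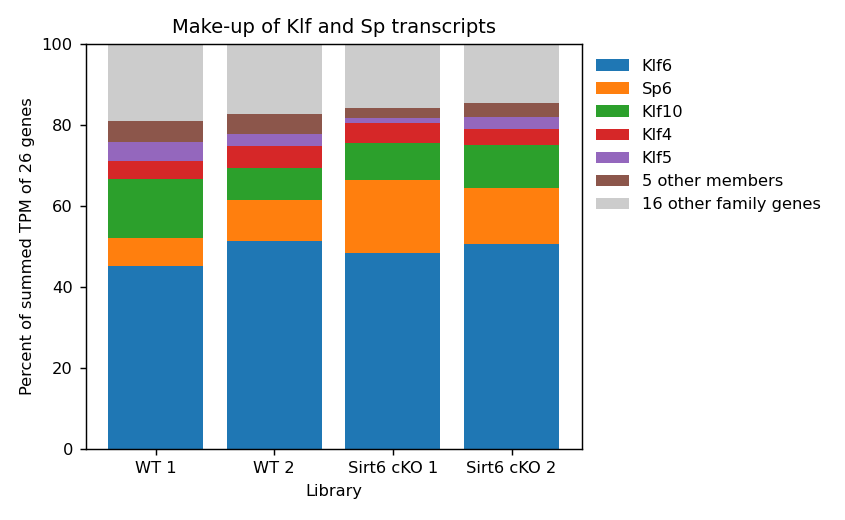
Share of the summed TPM of all 26 *Klf* and *Sp* genes, as stacked bars in percent, 1 bar for each library. *Klf6*, *Sp6*, *Klf10*, *Klf4* and *Klf5* have their own segments, and the other members and the other family genes are each pooled. *Klf6* fills between 45.1% and 51.4% of each bar, and the *Sp6* segment is 6.98% and 9.99% in WT and 18.1% and 13.9% in cKO.

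*Sp6* lies on chromosome 11 from 97013394 to 97024734 on the plus strand (GRCm38), 30434 bases from its relative *Sp2*. Of its 3841 exon bases, 3329 are also exon of *Gm11532* on the other strand. *Gm11532* was not in the count table, and whether the counting used strand was not given in the sources used here, so reads of the pair cannot be told apart in the *Sp6* values. *Sp2*, known to bind promoters together with NF-Y, had 1085, 1449, 2799 and 1511 counts in WT 1, WT 2, cKO 1 and cKO 2. The groups of *Sp2* did not overlap, but WT 2 and cKO 2 were close, and its log2 fold change of 0.83 (SE 0.41) did not pass the unadjusted threshold (edgeR adjusted p = 0.64). Among the 10408 genes with a mean of at least 10 CPM, the genes with the pattern most like *Sp6* over the 4 libraries were *Col4a1*, *Prss22*, *Ccdc120*, *Lasp1* and *Ncdn*. Likeness was the root mean square difference of log2 CPM centred on each gene, 0.024 for *Col4a1*, a chain of basement membrane collagen, and between 0.059 and 0.062 for the other 4. *Col4a1* had 38.3, 56.7, 113 and 88.1 CPM in WT 1, WT 2, cKO 1 and cKO 2. With 4 libraries and 10408 genes, close matches can arise for many patterns. For *Sp6* the match also includes the group difference it was picked for. Shared regulation was not tested, here or for *Klf4* below.

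*Klf4* and *Klf5*, which are known for opposite roles in epithelial layers, had different patterns over the libraries. *Klf4* had 5022 and 6039 counts in WT against 5541 and 4921 in cKO. The groups overlapped fully, with 85.8 ± 12.9 CPM (SD, n = 2) in WT, against 84.3 ± 10.7 CPM for cKO (SD, n = 2). Its log2 fold change was -0.03 (SE 0.23), and its sign depended on the libraries, with 0.14 when WT 2 was left out and -0.20 when WT 1 was. The 5 genes with the pattern most like *Klf4* were *Fdx1*, *Ptdss1*, *Txndc17*, *Rxra* and *Oit1*, with root mean square differences of 0.017 to 0.022. The RXRα gene *Rxra*, for one, had 20.7 and 25.3 CPM in WT and 25.2 and 20.5 CPM in cKO.

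*Klf5* had 2784 counts in WT 1, 1937 in WT 2, 731 in cKO 1 and 2135 in cKO 2. cKO 1 was the low library, and cKO 2 lay between the WT libraries. The log2 fold change was -0.68 (SE 0.52), which became -0.13 without cKO 1 and -1.62 without cKO 2. The ratio of *Klf4* to *Klf5* in TPM was 1.02 and 1.77 in WT, 4.30 in cKO 1 and 1.31 in cKO 2.

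*Sp1* and *Sp3*, which are made in most cells and compete for the same GC boxes, were each low in a different library labelled cKO. *Sp3* had 2306 and 2289 counts in WT, 366 in cKO 1 and 2321 in cKO 2. Of the 4 libraries, 3 were almost equal and cKO 1 stood alone, 5.97-fold below cKO 2 in CPM. The log2 fold change of -0.75 (SE 0.78) was 0.02 without cKO 1 and -2.59 without cKO 2. *Sp1* had 1223, 1707 and 1298 counts in WT 1, WT 2 and cKO 1, and 670 in cKO 2. Its groups overlapped, and its log2 fold change of -0.51 (SE 0.44) was -1.12 without cKO 1 and -0.11 without cKO 2. *Sp3* lies on chromosome 2 from 72936427 to 72980446 on the minus strand, and 109 of its exon bases lie opposite *Sp3os*, which was not in the count table. The ratio of *Sp3* to *Sp1* in TPM was 3.53 and 2.52 in WT, 0.528 in cKO 1 and 6.49 in cKO 2.

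*Klf8*, *Klf9*, *Klf16* and *Klf17*, outside the 10, were also lowest in cKO 1. *Klf8*, a repressor, had 320 and 249 counts in WT, 52 in cKO 1 and 242 in cKO 2. *Klf9*, a factor induced by glucocorticoid and thyroid hormone, had 5220 and 3431 counts in WT, 1981 in cKO 1 and 5449 in cKO 2. Of the 5 keratinocyte markers, *Krt1*, *Krt10* and *Lor* had 341, 355 and 63 counts in cKO 1, the lowest of the 4 libraries for each, whereas *Ivl* at 1643 counts lay within the range of the others and *Sbsn* at 3295 was highest there. Of the 10 members, cKO 1, cKO 2 and WT 1 were each the lowest library in CPM for 3, and WT 2 for 1. The lowest place of cKO 2 for *Klf4* was a near tie with WT 1, at 76.7211 against 76.7224 CPM. Of the 24 family genes tested, cKO 1 and cKO 2 were each lowest for 7, and WT 1 and WT 2 each for 5. Over all genes tested, cKO 1 was the lowest for 25.9% and cKO 2 for 20.2%.

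**Figure D3:**
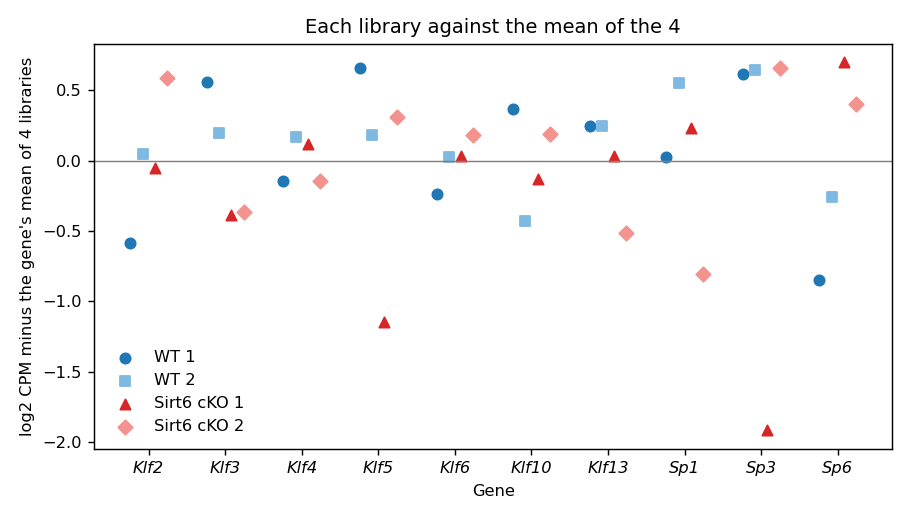
Log2 CPM of each member minus its mean over the 4 libraries, 1 point for each library. *Sp6* separates the groups in both libraries of each, whereas the largest deviations belong to single libraries, -1.92 for *Sp3* and -1.15 for *Klf5* in cKO 1.

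The repressors *Klf3* and *Klf13* lay lower in both libraries labelled cKO. *Klf3*, which binds the corepressor CtBP, had 2037 counts in WT 1, 1544 in WT 2, 975 in cKO 1 and 1056 in cKO 2. The 2 libraries labelled cKO were nearly equal and both below WT. In CPM the level was 27.7 ± 4.85 (SD, n = 2) in WT, against 16.3 ± 0.219 for cKO (SD, n = 2), a 1.70-fold difference (log2 fold change -0.76, SE 0.29). It ranged from -0.93 to -0.60 when single libraries were left out. *Klf3* lies on chromosome 5 from 64803388 to 64832901 on the plus strand, and 404 of its exon bases lie opposite *Gm20033*. *Klf8*, which *Klf3* is known to repress, is described above and lay lower too, mainly in cKO 1.

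*Klf13*, which recruits SIN3A and is known for late activation of *Ccl5* in T cells, had WT counts of 956 and 929 and cKO counts of 760 and 553. The groups did not overlap, with WT levels of 14.6 ± 0.0048 CPM (SD, n = 2) against 10.6 ± 2.81 CPM (SD, n = 2). This gave a log2 fold change of -0.46 (SE 0.34), with -0.76 without cKO 1 and -0.25 without cKO 2. *Ccl5* had 2641 and 3146 counts in WT against 1836 and 2362 in cKO, a log2 fold change of -0.42 (SE 0.26) that did not pass the unadjusted threshold (edgeR adjusted p = 0.71). The myeloid and tuft cell marker lists summed to lower values in both cKO libraries. The myeloid markers summed to 9886 and 6178 TPM in WT and 3927 and 4180 TPM in cKO. Of the 7, 4 were lower without overlap, against 20.3% of all genes tested, and 0 were higher without overlap. Most of each myeloid sum was *Lyz2*, at 9532 and 5941 TPM in WT and 3664 and 3955 TPM in cKO. The myeloid list did not move as a whole, since *Ptprc* had 145 and 106 TPM in WT and 177 and 129 TPM in cKO. The tuft cell markers summed to 164 and 192 TPM in WT and 122 and 113 TPM in cKO, with 3 of 5 lower without overlap in CPM. The tuft cell list did not move as a whole, since 1 of the 5, *Pou2f3*, was higher without overlap in CPM, against 21.6% of all genes tested. Its log2 fold change was 0.24 (SE 0.24). The thymocyte markers summed to 1243 and 926 TPM in WT and 1054 and 627 TPM in cKO, with 4 of 11 lower without overlap, but the sums overlapped, since cKO 1 lay above WT 2. Their part in the *Klf3* and *Klf13* values was not tested.

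*Klf2*, *Klf6* and *Klf10* are known, with *Klf4*, as genes switched on early by serum, stress, shear or TGF-β. *Klf6*, known as a growth suppressor, had WT counts of 68273 and 79763 and cKO counts of 75800 and 89507. Its level was 1148 ± 149 CPM (SD, n = 2) in WT, against 1326 ± 98.7 CPM for cKO (SD, n = 2), a log2 fold change of 0.21 (SE 0.16). The groups did not overlap in TMM-scaled CPM, but they overlapped in TPM, with 536 and 663 in WT and 649 and 726 in cKO. *Klf6* lies on chromosome 13 from 5861482 to 5870394 on the plus strand, and no exon of another gene overlaps its exons in the annotation.

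*Klf10*, a TGF-β-inducible repressor, had 15809 and 8846 counts in WT against 10285 and 13695 in cKO. The WT libraries enclosed the others, and the log2 fold change of 0.01 (SE 0.31) was 0.44 without WT 1 and -0.33 without WT 2. *Klf2*, known in endothelium and in resting T cells, had WT counts of 265 and 402 and cKO counts of 355 and 590. Its groups overlapped as well, with a log2 fold change of 0.54 (SE 0.47). *S1pr1*, a T cell egress receptor that *Klf2* activates, had 6144 and 6113 counts in WT against 6689 and 7467 in cKO, a log2 fold change of 0.26 (SE 0.18, edgeR adjusted p = 0.75). The endothelial markers summed to 62.5 and 47.3 TPM in WT and 46.6 and 52.2 TPM in cKO, and the part of endothelial or lymphoid cells in the *Klf2* values was not tested.

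The other early genes of the cell give the setting of these 4 members. Of 25 immediate early genes tested, 6 (24%) rose at an unadjusted p of 0.05 in edgeR, against 5.27% of all genes tested, and none fell, against 3.32%. They were *Fosb*, *Jun*, *Egr1*, *Atf3* and *Zfp36*, whose products are early factors or, for *Zfp36*, a destabiliser of mRNA, and the heat shock gene *Hspa1a*. *Fosb* went from 156 and 319 TPM in WT to 685 and 397 TPM in cKO (log2 fold change 1.20, SE 0.41), and *Egr1* from 1481 and 1802 TPM to 2145 and 2410 TPM (log2 fold change 0.48, SE 0.15). None of the 25 passed the adjusted p in edgeR or in DESeq2. The median log2 fold change was 0.19 over the 25 genes and -0.005 over all genes tested, and the extremes were *Egr3* at 1.24 (SE 0.64) and *Jund* at -1.37 (SE 0.71). The count of 6 was 1, *Hspa1a*, without WT 1 and 2, *Fosb* and *Zfp36*, without cKO 2.

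**Figure D4:**
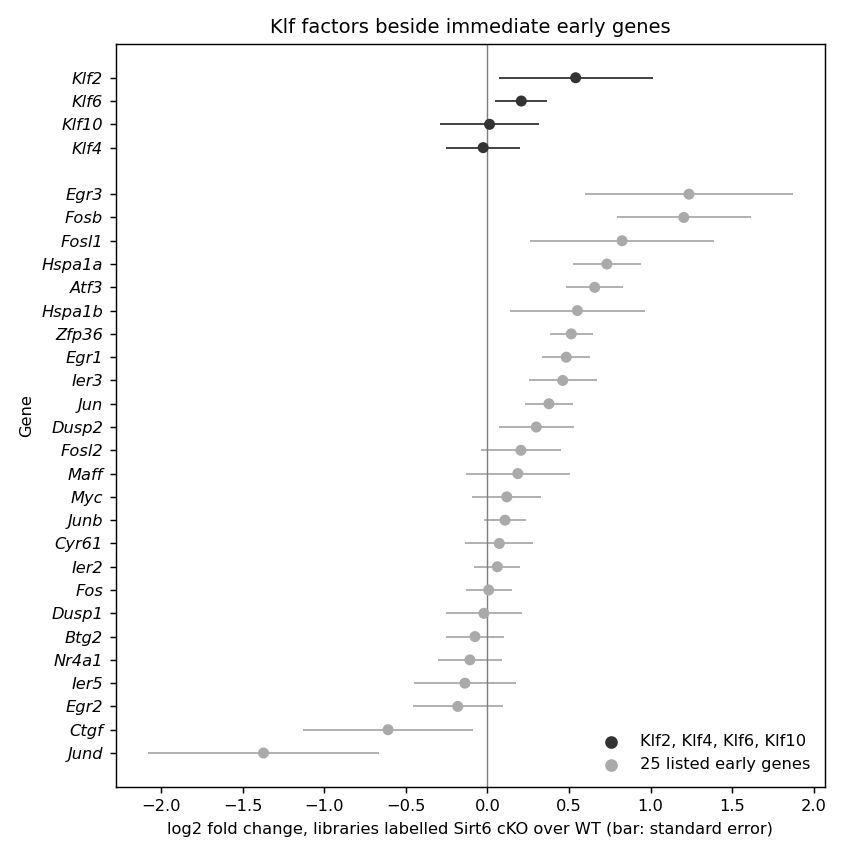
Log2 fold change, cKO over WT, with its SE for *Klf2*, *Klf4*, *Klf6* and *Klf10* beside 25 immediate early genes. The 4 members lie between -0.03 and 0.54, within the span of the immediate early genes from -1.37 (*Jund*) to 1.24 (*Egr3*).

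For all 24 family genes tested, a count that does not depend on how the 10 were picked, 1 gene was higher (*Sp6*) and 1 was lower (*Klf3*) at an unadjusted p of 0.05 in edgeR. This was 4.17% in each direction, against 5.27% of all genes tested that were higher and 3.32% that were lower (8.58% in either direction). With the upper quartile as the scale, the 977 higher and 615 lower genes became 751 and 800, and with library size alone 721 and 838. Both genes are members chosen with this contrast in view, so nothing is read from their place in the count. No family gene had an adjusted p under 0.05 in edgeR, which called 0.00539% of all genes, 1 gene in number. Of 26 family genes in DESeq2, *Klf12* and *Sp6* were higher and *Klf3* lower at its unadjusted p, against 5.8% and 4.38% of its genes. This is again a description for the members among them. At an adjusted p under 0.05, DESeq2 called 354 genes in all and 1 of the family, *Sp6*. Nothing is read from that call either, since *Sp6* was picked for this difference. The CPM values of the groups did not overlap for 4 family genes that were higher (16.7%) and 6 that were lower (25%), against 21.6% and 20.3% of all genes tested. Of the 10 members, 2 were higher (*Klf6* and *Sp6*) and 2 lower (*Klf3* and *Klf13*) without overlap. With the library size alone as the scale these were 1 higher, *Sp6*, and 3 lower, *Klf3*, *Klf13* and *Sp3*. The log2 fold change was above 0 in 8 family genes and below 0 in 16, with a median of -0.39, against 9204 above, 9343 below and a median of -0.005 over all genes tested.

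**Figure D5:**
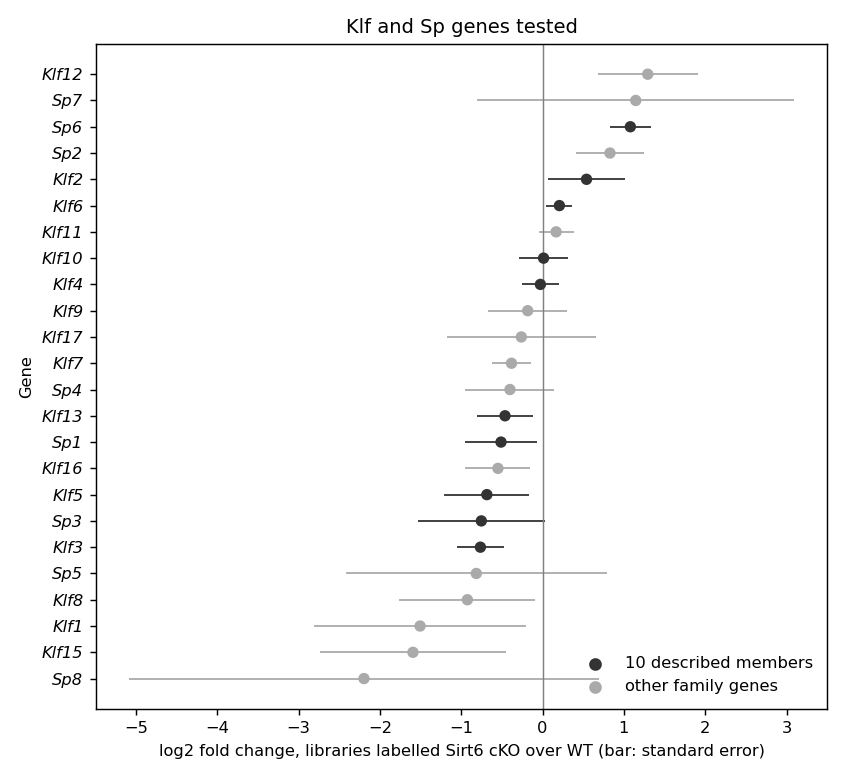
Log2 fold change, cKO over WT, with its SE for the 24 *Klf* and *Sp* genes tested, the 10 members marked. *Sp6* at 1.08 has a short bar above 0 and *Klf3* at -0.76 a short bar below 0, while the genes with the largest values, *Sp8* at -2.20 and *Klf12* at 1.29, rest on low or unequal counts.

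None of the 14 other family genes tested passed the unadjusted p in edgeR. *Klf12*, a repressor, had WT counts of 641 and 183 and cKO counts of 965 and 967, with a log2 fold change of 1.29 (SE 0.62, edgeR adjusted p = 0.64, DESeq2 adjusted p = 0.45). The WT libraries of *Klf12* differed more from each other than WT 1 did from cKO. *Klf7*, known from neurons and the most abundant gene outside the 10, had 3493 and 3652 counts in WT against 2870 and 2404 in cKO, with a log2 fold change of -0.38 (SE 0.24). *Klf11*, a TGF-β-inducible relative of *Klf10*, had WT counts of 5835 and 4652 and cKO counts of 5822 and 5498. *Klf16* had 474 and 525 counts in WT against 277 and 385 in cKO.

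The remaining family genes were low or uneven between libraries of 1 group. *Sp4* had WT counts of 918 and 2116 and cKO counts of 1437 and 770. *Klf1*, the factor of red cell development, had 338 counts in WT 2 and between 26 and 82 in the other libraries. *Sp7*, the osteoblast factor osterix, had 255 counts in WT 1, none in WT 2, and 231 and 308 in cKO. *Klf15* had 26 to 162 counts, *Klf17* 45 to 190, *Sp5* 4 to 23 and *Sp8* 0 to 132. *Klf14*, with 0 to 14 counts, and *Sp9*, with 0 to 20, did not pass the filter, and *Klf18* was not listed in the table under that symbol.

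Among genes of the proteins that work with the family, the called share was near that of all genes. Of 18 tested genes for corepressors, coactivators, ubiquitin ligases and upstream kinases of these factors, 1 (5.56%) rose at an unadjusted p of 0.05 in edgeR, against 5.27% of all genes tested, and none fell, against 3.32%. None passed the adjusted p in edgeR or DESeq2. The gene was *Sin3a*, the scaffold of a corepressor complex that *Klf10* and *Klf13* recruit. It had 3265 and 2380 counts in WT against 5956 and 4018 in cKO, a log2 fold change of 0.89 (SE 0.31, edgeR adjusted p = 0.55), and the call was lost without WT 2 or without cKO 1. The lowest value was that of the acetyltransferase *Kat2b* at -0.82 (SE 0.55). *Ctbp1*, which *Klf3* binds, had 1495 and 1547 counts in WT, 661 in cKO 1 and 1548 in cKO 2. The median over the 18 genes was 0.08.

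Of 27 genes known as targets of *Klf* or *Sp* factors, 1 rose and 1 fell at an unadjusted p of 0.05 in edgeR (3.70% each), against 5.27% and 3.32% of all genes tested, and none passed the adjusted p there. The gene that fell, *Krt19*, a keratin of simple epithelia, had 20565 and 23631 counts in WT against 12724 and 11899 in cKO, a log2 fold change of -0.79 (SE 0.18, edgeR adjusted p = 0.54, DESeq2 adjusted p = 0.031). The groups of *Krt19* did not overlap, and the libraries of each group lay close together. The highest value, 1.91 (SE 1.38), was that of *Tgfb1*, which had 36, 8, 117 and 39 counts in WT 1, WT 2, cKO 1 and cKO 2. *Cdkn1a*, the cell cycle inhibitor p21 that *Klf4*, *Klf6* and *Sp1* activate, had WT counts of 12826 and 15732 and cKO counts of 14971 and 18995, a log2 fold change of 0.30 (SE 0.20, edgeR adjusted p = 0.74). The median over the 27 genes was -0.07.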

How the data were processed

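Messenger RNA of sorted mTECs was profiled in 2 WT and 2 *Sirt6* cKO libraries (cKO). Reads were trimmed (Trim Galore), aligned to mm10 by HISAT2 2.1.0 and quantified by StringTie 1.3.3 by the authors. The annotation and strand setting were not given in the sources used here. The deposited counts are whole numbers per gene without normalization. The other deposited values are TPM per library from StringTie, with a line holding the column total that was left out here.

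From the counts, all genes were fitted with edgeR 4.0.16 (TMM, filterByExpr at 10 counts and 15 in total, quasi-likelihood test, Benjamini-Hochberg adjustment at 0.05) in R 4.3.3, which left 18547 genes. The SE is the log2 fold change divided by the root of the F statistic. CPM uses the TMM factors. Alternatives were DESeq2 1.42.0, limma 3.58.1 on log2(TPM + 1) and log2(TPM + 0.1), other filters and scalings, the replicate number as a block and each library left out. The fit was tested on simulated data that varied less between libraries than these do, so it was not checked at the spread seen here.

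The members and gene lists were chosen with earlier results of these data known. Named were the 10 members, *Sirt6*, the other *Klf* and *Sp* genes, the genes of each list past an unadjusted p of 0.05 (at most 8), the highest and lowest of each list, and the 5 nearest patterns to *Sp6* and *Klf4*. *Ctbp1*, *Ccl5*, *S1pr1*, *Cdkn1a*, *Pou2f3*, *Krt8*, *Lyz2*, *Ptprc* and the keratinocyte markers were named after their values were seen. Positions come from GENCODE M21 (GRCm38), promoters from RefSeq (GRCm38.p6), and motifs were counted on both strands. Of the target list, 1 gene is not reported here by name. Protein sequences were not used here. Replicate numbers were not taken to pair libraries.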

Additional observations from a re-analysis of the deposited data

How the results depend on the processing

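The log2 fold changes of the 10 members were recomputed under 12 alternatives, 120 values in all. Of these, 116 moved by less than 1 SD, here the gene's own SD of log2 CPM pooled within the groups. With 2 libraries per group, this SD is large where a single library stands apart, as for *Sp3* at 1.29. A large move can thus stay below it, as for *Sp3* from -0.75 to 0.02 without cKO 1. The 4 that moved more were *Klf5* (-1.62) and *Sp3* (-2.59) without cKO 2 and *Klf13* (-0.76) and *Sp1* (-1.12) without cKO 1. The sign was the same under every alternative for 7 members, and *Klf4*, *Klf10* and *Sp3* changed sign. With all 4 libraries, *Sp6* stayed between 0.99 and 1.10 and *Klf3* between -0.85 and -0.73.

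Counts at the unadjusted p were as follows. The number of family genes that were higher was 1, 2 with DESeq2 and 2 with the replicate block (*Klf12* and *Sp6*), and 1 to 3 when single libraries were left out (*Klf12*, *Sp6* and *Sp7* without WT 1). The number that were lower was 1, 0 with the replicate block, and 0 to 3 when single libraries were left out (0 without cKO 1, *Klf5*, *Klf9* and *Sp3* without cKO 2, and *Klf1* alone without WT 1). Regulators counted 1 higher and 0 lower, and 0 to 1 each when libraries were left out. Targets counted 1 higher, 1 to 2 when libraries were left out, and 1 lower, which was 2 with DESeq2, 2 with library size alone, 2 with limma at either pseudocount, and 1 to 2 when libraries were left out. The 6 immediate early genes became 1 to 6. The cause was not tested.

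Over all genes, 977 were higher and 615 lower, against 751 and 800 with the upper quartile, 721 and 838 with library size alone and 908 and 874 with limma on log2(TPM + 1). Without cKO 1 they were 394 and 332. Adjusted calls were 1 in edgeR, 0 in edgeR with any library left out or with the replicate block, 354 in DESeq2, and 7 and 2 in limma. The replicate numbers were not shown to pair the libraries, since with 2 pairs the deviations correlated at -0.054, and the block gave 697 higher and 449 lower. With a library left out, the lone sample is assumed to vary like the other group. The precision is limited by 2 libraries per group and not by depth, since the lowest count of any member was 265.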
